A study of Mus musculus with 8 samples.

Results

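The otic prosensory transcription factors described here are Sox2, Sox9, Eya1, Gata3, Prox1, Isl1, Pax2, Lmx1a and Dlx5, 9 genes chosen by name out of 48823 gene identifiers in the count files. All 9 were found by symbol in the deposited tables and all 9 passed the filter on low counts, which left 16990 genes for testing. RNA was sequenced from utricles, the gravity-sensing organs of the mouse inner ear. There were 4 libraries from Rest(+/deltaExon4) embryos, which carry 1 allele of Rest without exon 4, and 4 libraries from wild-type embryos. Both groups are C57BL/6 at stage E15.5, except that the labels of wild-type replicate 4 give C57BL/7 and E15.6. RNA of 7 to 9 mice was pooled for each library, so the spread between libraries is that between pools. The titles call the mutant a knockout, while the genotype label gives a heterozygote.

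The sensory patches of the ear arise from prosensory cells, epithelial progenitors in the otic vesicle that later give hair cells and supporting cells. Transcription factors set this territory apart in steps: EYA1 acts early, SOX2 marks the cells that can become sensory, and LMX1A and DLX5 belong mainly to the neighbouring non-sensory and dorsal epithelium. REST is a repressor of neuronal genes, and its exon 4 is an alternative exon whose inclusion shortens the protein. The comparison asks which genes change in the utricle when 1 allele lacks this exon.

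Between 22.4 and 24.6 M read pairs fell on genes in the mutant libraries, and between 20.4 and 23.8 M in the wild-type ones. Genes with at least 1 read numbered 23408 to 23989 in the mutant and 24265 to 24687 in the wild-type group, without overlap, so a difference between the libraries themselves cannot be told apart from the genotype. Summed markers of vestibular neurons were at 226 to 269 CPM in mutant and 432 to 660 CPM in wild-type libraries. Wild-type replicate 3 held that maximum of 660 CPM, and replicates 1, 2 and 4 of the wild type had 432 to 489 CPM. Nefm and Nefl gave 160 to 188 CPM of the sum in the mutant group and 350 to 451 CPM in the wild-type group. The other 8 neuron markers summed to 66.8 to 101 CPM in mutants against 79.4 to 209 CPM in wild types, which overlap, and 3 of the 10 markers had a positive log2 change. Hair cell markers summed to 595 to 743 CPM in mutant against 704 to 814 CPM in wild-type libraries. Supporting cell markers summed to 1659 to 1764 CPM in mutant against 1609 to 2010 CPM in wild-type libraries. None of the 8 hair cell and 8 supporting cell markers was at 0 in all libraries. CPM is the number of read pairs on a gene scaled to a common library size, here with factors from the trimmed mean of M values (TMM). In pooled tissue, fewer cells of a type and less RNA per cell cannot be told apart.

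Of the 9 genes, Gata3 was the one with the largest higher level in mutant utricles, at 1.43 times the wild-type mean, and Prox1 the one with the largest lower level, at 0.723 times. Eya1 was at 0.885 times the wild-type mean. The other 6, Sox2, Sox9, Isl1, Pax2, Lmx1a and Dlx5, had ratios from 1.01 to 1.20 and groups that overlapped. None of the 9 passed an adjusted p of 0.05 by edgeR's quasi-likelihood test, which called 1.17% of all genes tested. At an unadjusted p under 0.05 there were 3 of 9, Gata3, Prox1 and Eya1, against 13.4% of all genes. DESeq2 called 1 of 9, Gata3, against 3.32% of all genes. The groups of libraries did not overlap for 2 of 9, Eya1 and Prox1, against 7.88% of all genes. In both the mutant libraries were the lower ones, which held for 4.89% of all genes, while 2.98% had all mutant libraries higher. The calls over all genes were 1.02% lower and 0.147% higher. The median log2 change was 0.06 over the 9 genes and -0.0027 over all genes tested.

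**Figure D1:**
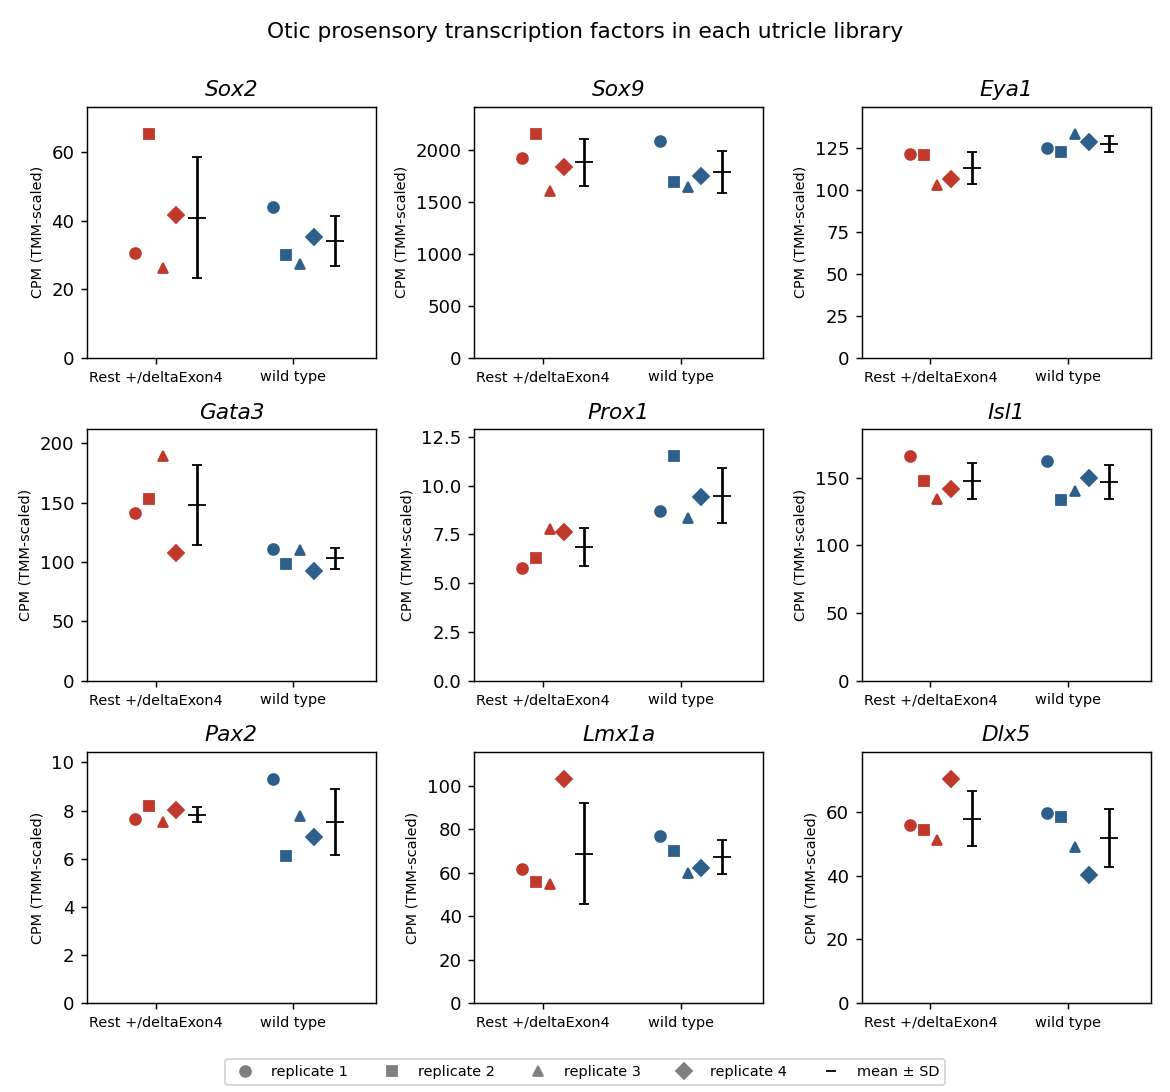
Level of each of the 9 genes in CPM (vertical axes from 0) in 4 Rest +/deltaExon4 and 4 wild-type libraries; symbols mark replicates 1 to 4 and bars the mean ± SD of each group. Gata3 is above every wild-type library in 3 of 4 mutant libraries, Prox1 and Eya1 lie below every wild-type library in all 4, and Lmx1a and Sox2 each have 1 high mutant library.

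Sox2 encodes an HMG-box factor that mouse sensory patches need in order to form, and it stays on in supporting cells. The gene has 1 exon, on chromosome 3 at 34650405 to 34652461 (GRCm38, plus strand). It was at 30.5, 65.4, 26.3 and 41.6 CPM in mutant replicates 1 to 4 and at 44.1, 29.9, 27.3 and 35.2 CPM in wild-type replicates 1 to 4. The groups overlapped, with mutant replicate 2 the highest and mutant replicate 3 the lowest of all 8 libraries. The means were 41.0 ± 17.5 CPM for mutants and 34.1 ± 7.42 CPM for wild types (SD, n = 4 each), a log2 change of 0.26 ± 0.26 (SE, edgeR adjusted p = 0.694, exact two-sided permutation p = 0.629). The 95% interval of the fold ran from 0.808 to 1.78, so neither a modest fall nor a rise of over 1.5 times lies outside it. Without mutant replicate 2 the log2 change was -0.042, with the opposite sign. Sox2 varied between libraries more than 98% of the 500 genes nearest to it in level, with a biological coefficient of variation of 25.9%. Mutant replicate 2 was also the library highest in Ssbp3, a cofactor gene of LIM-domain factors, at 373 CPM, with the remaining 7 libraries at 130 to 180 CPM. Of the 153 other genes of the lists, Ssbp3 had the pattern over libraries most like that of Sox2 (root mean square difference 0.19 in gene-centred log2 CPM).

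Sox2 lies inside Sox2ot, a long non-coding gene on the same strand with which it shares no exon bases. Sox2ot was at 30.3, 27.8, 20.2 and 25.5 CPM in mutant libraries and at 48.6, 33.9, 33.4 and 34.2 CPM in wild-type libraries. The groups did not overlap and the mutant libraries were the lower ones, while the values of Sox2 itself were mixed. For Sox2ot the log2 change was -0.53 ± 0.16 (SE) and did not pass with edgeR (adjusted p = 0.173), but passed with DESeq2 (adjusted p = 0.043). Adjusted p ranged from 0.043 to 0.384 over 16 alternatives. Gm42692, on the same strand near Sox2, was at 8.05 ± 2.38 CPM in mutants against 11.1 ± 1.58 CPM in wild types (SD, n = 4 each, edgeR adjusted p = 0.369). The counts ignore strand, and intronic reads of Sox2ot that fall on the Sox2 exon would be counted for Sox2. The promoter window of Sox2 from RefSeq (GRCm38.p6, chr3:34649745-34650044, plus strand, 250 bases before to 50 after the start) is shown because its level was the most variable. The start used is that of RefSeq, and this window ends before the gene span given above, which begins at 34650405. Capitals mark ACAAAG, a core of SOX binding sites, and the reverse complement of CCAAT.
Sox2 window: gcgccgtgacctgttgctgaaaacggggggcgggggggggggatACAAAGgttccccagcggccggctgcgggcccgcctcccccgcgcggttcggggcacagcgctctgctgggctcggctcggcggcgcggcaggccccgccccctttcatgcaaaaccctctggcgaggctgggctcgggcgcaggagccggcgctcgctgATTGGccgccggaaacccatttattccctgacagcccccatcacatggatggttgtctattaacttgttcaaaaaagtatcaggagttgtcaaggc

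Sox9, a SoxE factor active from the otic placode onward and also in cartilage, was by far the most abundant of the 9. It lies on chromosome 11 at 112782224 to 112787760. It was at 1918, 2155, 1605 and 1834 CPM in mutant libraries and at 2084, 1689, 1638 and 1747 CPM in wild-type libraries. Mutant replicates 2 and 3 were the extremes of all 8, so the wild-type range lay within the mutant one. On the log2 scale the change was 0.07 ± 0.11 (SE, edgeR adjusted p = 0.831), with a 95% interval of the fold from 0.887 to 1.24. Spry2, described with the other regulators, was the gene most like Sox9 over the libraries (root mean square difference 0.073). Summed markers of cartilage and periotic mesenchyme, tissues that can also hold Sox9, were at 1669 to 2304 CPM in mutant and 1272 to 1892 CPM in wild-type libraries. Their part in the level of Sox9 was not tested. The non-coding gene BC006965, on the opposite strand near Sox9, was at 124 ± 5.73 CPM in mutants against 141 ± 11.3 CPM in wild types (SD, n = 4 each, edgeR adjusted p = 0.325).

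Over all genes tested, edgeR called 1.02% lower and 0.147% higher. Among 14 SOX paralogs, 13 were tested, 1 fell and none rose, with a median log2 change of 0.07. The one that fell was Sox11, a SoxC gene of neuronal and progenitor cells, at 3560, 4468, 2994 and 3204 CPM in mutant libraries and 6487, 6203, 5488 and 5731 CPM in wild-type libraries. All mutant libraries were below all wild-type ones (log2 change -0.75 ± 0.13, SE, edgeR adjusted p = 0.0173). The call of Sox11 was lost in 5 of 8 fits that leave out a library, mutant replicate 1, 3 or 4 or wild-type replicate 1 or 2, with adjusted p from 0.0514 to 0.065. Sox10, a marker of Schwann and otic epithelial cells, was at 52.9 ± 9.00 CPM in mutants against 43.6 ± 3.36 CPM in wild types, and Sox6, a SoxD gene, at 12.7 ± 2.67 CPM in mutants against 17.3 ± 1.06 CPM in wild types (SD, n = 4 each). Neither passed, and both were picked after their values were seen.

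Eya1 encodes a phosphatase and transcriptional coactivator without which the mouse ear arrests at the otic vesicle. It spans chromosome 1 from 14168954 to 14310235. It was at 122, 121, 103 and 107 CPM in mutant libraries and at 125, 123, 134 and 129 CPM in wild-type libraries. Every mutant library was below every wild-type library, though the gap between 122 in mutant replicate 1 and 123 in wild-type replicate 2 was small. The means were 113 ± 9.57 CPM for mutants and 128 ± 4.73 CPM for wild types (SD, n = 4 each), a log2 change of -0.18 ± 0.08 (SE). The exact two-sided permutation p was 0.0286, the smallest that 4 against 4 libraries allow, and edgeR's adjusted p was 0.35. The 95% interval of the fold ran from 0.789 to 0.993, so a fall to below 0.789 lies outside it. The log2 change was negative in all 16 alternatives, from -0.22 to -0.13, with adjusted p from 0.23 to 0.572.

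Pax2, a paired-box gene of the otic placode and vesicle on chromosome 19 (44756045 to 44837871), was low. It was at 7.63, 8.17, 7.51 and 8.02 CPM in mutant libraries and at 9.31, 6.10, 7.76 and 6.89 CPM in wild-type libraries. The mutant libraries all lay inside the wild-type range. With 132 to 219 read pairs per library, the 95% interval of the fold ran from 0.821 to 1.32 (log2 change 0.06 ± 0.16, SE, edgeR adjusted p = 0.903). Gm20395, which overlaps Pax2 on the opposite strand, was at 1.67 ± 0.768 CPM in mutants against 1.87 ± 0.364 CPM in wild types (edgeR adjusted p = 0.874). The gene most like Pax2 over the libraries was Jag1 (root mean square difference 0.09).

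The network in which EYA1 and PAX2 act, with their paralogs and partners, gave 10 other genes. Of these, 9 were tested and none passed with edgeR (median log2 change -0.0035). At an unadjusted p under 0.05 there were 2, against 13.4% of all genes. Six4, a homeobox gene of this network, was at 44.0 ± 8.74 CPM in mutants against 41.4 ± 3.17 CPM in wild types (SD, n = 4 each). The 2 genes at an unadjusted p under 0.05 were Eya2, at 15.4 ± 2.04 CPM in mutants against 11.3 ± 2.80 CPM in wild types, and Dach1, at 36.3 ± 3.30 CPM in mutants against 42.6 ± 2.48 CPM in wild types, both picked after their values were seen. Eya2 and Eya1 had log2 changes of opposite sign, 0.45 ± 0.18 and -0.18 ± 0.08 (SE), and no test of the difference between paralogs was made. The gene most like Eya1 over the 8 libraries was its paralog Eya3 (root mean square difference 0.067), at 14.4 ± 0.563 CPM in mutants against 15.9 ± 0.955 CPM in wild types.

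Gata3 encodes a zinc-finger factor needed for the form of the mouse ear and for its neurons, and loss of 1 copy causes deafness in humans. It spans chromosome 2 from 9857078 to 9890034. Gata3 was at 142, 153, 189 and 107 CPM in mutant libraries and at 111, 98.3, 110 and 92.8 CPM in wild-type libraries. Replicates 1 to 3 of the mutant were above every wild-type library, and mutant replicate 4 lay within the wild-type range. The means were 148 ± 33.8 CPM for mutants and 103 ± 9.04 CPM for wild types (SD, n = 4 each), a log2 change of 0.52 ± 0.15 (SE) with a 95% interval of the fold from 1.15 to 1.79. The exact two-sided permutation p was 0.0857. edgeR's adjusted p was 0.154, where Gata3 ranked 491 of 16990 genes by p, and DESeq2's adjusted p was 0.0232. Without mutant replicate 4 edgeR gave a log2 change of 0.65 with an adjusted p of 0.0336, and without mutant replicate 3 it gave 0.38 with 0.293. Over 16 alternatives the change was positive in all, from 0.38 to 0.65, with adjusted p from 0.0232 to 0.293.

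Gata3 shares 155 exon bases with the antisense gene Gm13256 and 77 with 9230102O04Rik on its own strand. Summing the strand-specific columns gave on average 8.54% more reads on Gata3. The libraries do not mark strand, so this sum counts reads in bases shared with an antisense gene for both genes. It cannot tell which gene those reads came from. Counted that way, Gata3 was at 153 ± 35.3 CPM in mutants against 106 ± 9.44 CPM in wild types (SD, n = 4 each), a ratio of 1.44. Gata3 is also known from ganglion neurons of the ear. The summed neuron markers, mostly Nefm and Nefl, were lower in every mutant library, but the sum of the other 8 overlapped between the groups. The part of these neurons in the level of Gata3 was not tested. Among 9 GATA factors and cofactors, 6 were tested and none passed with edgeR (median log2 change 0.08). At an unadjusted p under 0.05 there were 2, against 13.4% of all genes. Gata2, the paralog that is also active in the ear, was at 111, 91.6, 124 and 81.6 CPM in mutant libraries and 64.5, 90.8, 86.7 and 70.4 CPM in wild-type libraries (log2 change 0.38 ± 0.14, SE, adjusted p = 0.3). As for Gata3, mutant replicate 3 was the highest of all 8 libraries and mutant replicate 4 the lowest of the mutant ones. Lmo4, a LIM-only cofactor, was at 443 ± 90.5 CPM in mutants against 375 ± 26.2 CPM in wild types. The gene most like Gata3 over the libraries was Irx3, a homeobox gene, at 13.4 ± 4.05 CPM in mutants against 8.71 ± 1.09 CPM in wild types (root mean square difference 0.18, adjusted p = 0.22).

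The RefSeq promoter window of Gata3 (GRCm38.p6, chr2:9878551-9878850, minus strand, written 5′ to 3′ along the gene) is shown with those of Prox1, since these genes had the largest changes of the 9. The start used is again that of RefSeq, and the Gata3 window lies inside the gene span given above. Prox1 has 2 annotated starts, with windows at chr1:190170778-190171077 and chr1:190169466-190169765, both on the minus strand. Windows were matched by symbol for 6 of the 9 genes, 9 windows in all, and not for Sox9, Eya1 and Dlx5. The RE1 element bound by REST, searched on both strands as TTCAGCACC, any 2 bases, GGACAG, any base and GCC, was in none of the 9 windows and in 0.00304% of 32851 windows of all genes. Its left part TTCAGCACC was in none of the 9 (0.371% of all windows), and its right core GGACAG was in 2, in Lmx1a and Prox1 (22.2% of all windows). Other letters searched were AGATAA for GATA factors (1 of 9 and 11.2%), ACAATG and ACAAAG for SOX factors (0 of 9 and 12.6%, 4 of 9 and 18.7%), CAGCTG for E-boxes (3 of 9 and 16.3%), TAATTA for homeodomains (0 of 9 and 5.29%), TATAAA (1 of 9 and 13.6%) and CCAAT (3 of 9 and 37.4%). TTCAGCACC and GGACAG are parts of the full RE1, and the other motifs were searched on both strands as well. In the sequences, capitals mark CAGCTG in Gata3, the reverse complements of TATAAA and CCAAT in the upstream Prox1 window, and those of GGACAG and ACAAAG in the downstream one. A match is a match of letters, and windows of this length leave out distal sites. The full RE1 letters are so rare over all windows that their absence from 9 cannot tell whether REST binds these genes.
Gata3 window: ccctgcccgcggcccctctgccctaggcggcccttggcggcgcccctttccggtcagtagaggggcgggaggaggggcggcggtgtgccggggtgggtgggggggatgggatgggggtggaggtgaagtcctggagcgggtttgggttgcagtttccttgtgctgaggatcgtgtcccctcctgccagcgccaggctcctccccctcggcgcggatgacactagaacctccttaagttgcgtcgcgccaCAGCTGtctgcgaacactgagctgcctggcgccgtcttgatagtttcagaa
Prox1 upstream window: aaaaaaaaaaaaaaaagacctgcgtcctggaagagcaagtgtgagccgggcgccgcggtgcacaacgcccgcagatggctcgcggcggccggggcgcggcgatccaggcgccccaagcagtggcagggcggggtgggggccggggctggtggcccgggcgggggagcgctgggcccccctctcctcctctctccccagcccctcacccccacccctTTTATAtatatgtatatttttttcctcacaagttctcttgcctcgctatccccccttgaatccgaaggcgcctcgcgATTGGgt
Prox1 downstream window: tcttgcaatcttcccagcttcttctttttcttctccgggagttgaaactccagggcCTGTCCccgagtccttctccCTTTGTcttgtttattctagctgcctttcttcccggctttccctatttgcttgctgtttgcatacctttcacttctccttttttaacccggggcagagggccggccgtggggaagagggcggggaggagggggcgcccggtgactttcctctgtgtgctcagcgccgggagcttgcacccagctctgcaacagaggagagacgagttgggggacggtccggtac

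Prox1 encodes a homeodomain factor of prosensory and supporting cells, also found in lymphatic endothelium and in neurons of the ganglion. It spans chromosome 1 from 190118035 to 190170714 and was, with Pax2, the lowest of the 9. Prox1 was at 5.79, 6.26, 7.77 and 7.61 CPM in mutant libraries and at 8.72, 11.5, 8.33 and 9.41 CPM in wild-type libraries. All 4 mutant libraries were below all 4 wild-type ones, with mutant replicates 1 and 2 the lowest and wild-type replicate 2 the highest. The means were 6.86 ± 0.981 CPM for mutants and 9.49 ± 1.41 CPM for wild types (SD, n = 4 each), a log2 change of -0.47 ± 0.16 (SE) with a 95% interval of the fold from 0.566 to 0.924. The exact two-sided permutation p was 0.0286, the smallest possible, and edgeR's adjusted p was 0.252. The change was negative in all 16 alternatives, from -0.53 to -0.35, with adjusted p from 0.151 to 0.467.

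The antisense gene Prox1os shares 133 exon bases with Prox1, and summing the strand-specific columns gave on average 6.78% more reads on Prox1. As for Gata3, that sum cannot tell from which gene the reads in shared bases came. Counted that way Prox1 was at 7.03 ± 1.10 CPM in mutants against 9.52 ± 1.53 CPM in wild types (SD, n = 4 each), and the groups still did not overlap. Prox1os itself was at 0.983 ± 0.284 CPM in mutants against 0.990 ± 0.412 CPM in wild types. Prox1 was counted from 131 to 249 read pairs per library. The summed neuron markers, mostly Nefm and Nefl, were also lower in every mutant library, but the sum of the other 8 overlapped between the groups. Endothelial markers summed to 884 to 1046 CPM in mutants against 777 to 951 CPM in wild types, of which Pdpn gave 750 to 913 CPM in mutants and 640 to 831 CPM in wild types. The other 5 summed to 118 to 137 CPM in mutants against 119 to 152 CPM in wild types. Of the lymphatic genes among them, Lyve1 was at 18.0 to 27.1 CPM in mutants against 19.3 to 38.1 CPM in wild types, and Flt4 had a log2 change of 0.35 ± 0.17 (SE, edgeR adjusted p = 0.397) with overlapping groups. The part of these cell types in the level of Prox1 was not tested. The gene most like Prox1 over the libraries was Myo7a, a myosin of the hair bundle, at 31.5 ± 3.88 CPM in mutants against 41.6 ± 5.96 CPM in wild types (root mean square difference 0.18).

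Isl1, a LIM-homeodomain gene of the prosensory epithelium and of ganglion neurons, was among the steadiest of the 9. It lies on chromosome 13 at 116298281 to 116309689. It was at 166, 147, 134 and 141 CPM in mutant libraries and at 162, 133, 140 and 150 CPM in wild-type libraries. The groups covered nearly the same range, with means of 147 ± 13.4 CPM for the mutant and 146 ± 12.6 CPM for the wild type (SD, n = 4 each). Its log2 change was 0.0079 ± 0.088 (SE, edgeR adjusted p = 0.98), and the 95% interval of the fold ran from 0.879 to 1.15, so a change of more than about 1.15 times in either direction lies outside it. The sign turned with the scaling: without TMM factors the log2 change was -0.035. The summed markers of ganglion neurons, mostly Nefm and Nefl, were lower in every mutant library, but the sum of the other 8 overlapped between the groups. The part of these neurons in the level of Isl1 was not tested. Over all genes tested, 13.4% had an unadjusted p under 0.05. Of 14 LIM homeodomain genes and cofactors, 8 were tested and none passed with edgeR (0 at an unadjusted p under 0.05, median log2 change 0.04). The most abundant were Ssbp3, at 204 ± 115 CPM in mutants against 169 ± 13.1 CPM in wild types, and Ssbp2, at 127 ± 4.27 CPM in mutants against 123 ± 8.65 CPM in wild types. Sox5, a SoxD gene, was the gene most like Isl1 over the libraries (root mean square difference 0.078), at 17.7 ± 1.37 CPM in mutants against 17.4 ± 0.610 CPM in wild types (SD, n = 4 each).

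Lmx1a, a LIM-homeodomain gene that keeps non-sensory epithelium apart from the sensory patches in mice, lies on chromosome 1 at 167689237 to 167848741. It was at 61.6, 55.6, 54.6 and 103 CPM in mutant libraries and at 77.0, 69.8, 59.7 and 62.2 CPM in wild-type libraries. Mutant replicate 4 stood far above all other libraries, and the other 3 mutant libraries lay in the lower part of the range. On the log2 scale the change was 0.03 ± 0.19 (SE, edgeR adjusted p = 0.959, 95% interval of the fold 0.768 to 1.36). Without mutant replicate 4 it was -0.22 (adjusted p = 0.39), with the opposite sign, and without TMM factors it was -0.0049.

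Dlx5, a distal-less homeobox gene of the dorsal otic epithelium from which the canals form, lies on chromosome 6 at 6877805 to 6882085. It was at 55.9, 54.3, 51.1 and 70.3 CPM in mutant libraries and at 59.8, 58.3, 48.9 and 40.2 CPM in wild-type libraries. The highest of all 8 libraries was again mutant replicate 4, and the lowest was wild-type replicate 4, which has the differing age label. The log2 change was 0.16 ± 0.14 (SE, edgeR adjusted p = 0.642, 95% interval of the fold 0.905 to 1.38), and it was 0.06 both without mutant replicate 4 and without wild-type replicate 4. The non-coding gene Dlx6os1 next to Dlx5 was at 21.2, 16.9, 15.7 and 40.3 CPM in mutant libraries and 19.8, 21.8, 17.8 and 13.6 CPM in wild-type libraries, also highest in mutant replicate 4 and lowest in wild-type replicate 4. The neighbouring paralog Dlx6 was at 20.1 ± 3.47 CPM in mutants against 17.7 ± 1.79 CPM in wild types (SD, n = 4 each), and mutant replicate 4, at 18.4 CPM, did not stand out there.

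Among the 9, the gene with the pattern most like that of Lmx1a was Dlx5, and the one most like Dlx5 was Lmx1a (root mean square difference 0.20). A gene flat over the libraries would differ by 0.22 from Dlx5 and by 0.28 from Lmx1a, so the likeness to Dlx5 is slight. Over all list genes the nearest to Lmx1a was Dach2, at 13.2, 14.9, 15.8 and 27.5 CPM in mutant libraries and 19.9, 19.8, 16.9 and 13.9 CPM in wild-type libraries, again highest in mutant replicate 4. The nearest to Dlx5 was Nr2f2, at 302 ± 32.0 CPM in mutants against 270 ± 36.8 CPM in wild types (SD, n = 4 each). Oc90, the main otoconial protein gene of the non-sensory epithelium, was at 1346, 1369, 2402 and 1540 CPM in mutant libraries and 1920, 2478, 1735 and 1701 CPM in wild-type libraries, highest of the mutant libraries in replicate 3 and not in replicate 4. Summed non-sensory and roof markers were at 1488 to 2593 CPM in mutant and 1822 to 2688 CPM in wild-type libraries. Of 8 Dlx and Msx genes, 7 were tested and none passed with edgeR, with a median log2 change of 0.30. At an unadjusted p under 0.05 there were 2, against 13.4% of all genes. Dlx3 was at 33.5 ± 3.48 CPM in mutants against 30.8 ± 3.51 CPM in wild types and Dlx1 at 24.3 ± 4.10 CPM in mutants against 19.4 ± 4.17 CPM in wild types. Msx1, picked after its values were seen, was at 8.96, 5.35, 14.7 and 22.0 CPM in mutant libraries and 6.34, 6.05, 7.04 and 1.99 CPM in wild-type libraries (edgeR adjusted p = 0.268). Its highest library was mutant replicate 4 and its lowest wild-type replicate 4, as for Dlx5.

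**Figure D2:**
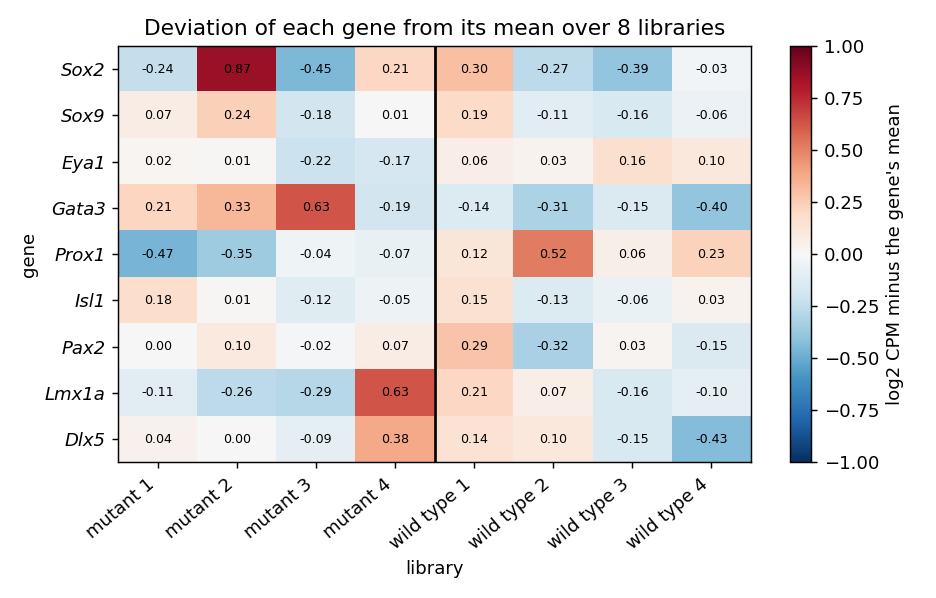
Deviation of each gene's log2 CPM from its own mean over 8 libraries (colour scale and printed values), with the 4 mutant libraries left of the 4 wild-type ones. Mutant replicate 4 is high in Lmx1a (0.63) and Dlx5 (0.38) and is the only mutant library below the mean in Gata3 (-0.19), while mutant replicate 2 is high in Sox2 (0.87).

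Levels can be compared between genes only per length, here as TPM, which divides by the summed exon length before scaling. Sox9 stood at 1501 ± 160 TPM (SD, n = 8), rank 65 among the genes tested. Isl1 followed at 126 ± 10.9, Gata3 at 107 ± 26.4, Dlx5 at 82.0 ± 12.8, Lmx1a at 67.8 ± 15.7, Sox2 at 61.6 ± 20.5 and Eya1 at 52.3 ± 5.64 TPM. Pax2 at 4.81 ± 0.608 and Prox1 at 3.31 ± 0.757 TPM were the lowest, at percentiles 31.6 and 24.9 of the genes tested. Sox9 was above Isl1 in 8 of 8 libraries and Eya1 above Pax2 in 8 of 8, so the genes fell into 3 tiers. Within the middle tier the order did not hold in every library: Isl1 was above Gata3 in 6 of 8, Gata3 above Dlx5 in 6, Dlx5 above Lmx1a in 7, Lmx1a above Sox2 in 7 and Sox2 above Eya1 in 4. Pax2 was above Prox1 in 7 of 8. Sox9 alone gave 76.3% of the summed CPM of the 9 genes.

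**Figure D3:**
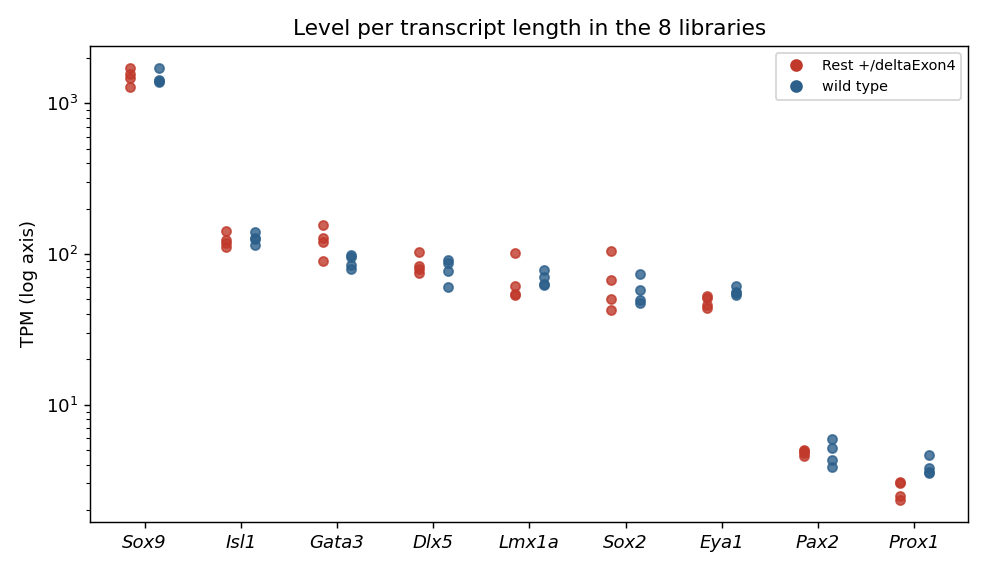
Level of each gene in TPM (log axis), with the 4 mutant libraries left of the 4 wild-type libraries in each pair. Sox9 lies between 1281 and 1727, a middle tier of 6 genes lies between 42.3 and 157, and Pax2 and Prox1 lie below 6 TPM.

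The spread between libraries of a genotype differed widely among the 9. The coefficient of variation was 42.8% in mutant and 21.8% in wild-type libraries for Sox2, and 33.6% in mutant and 11.6% in wild-type libraries for Lmx1a. For Gata3 it was 22.8% in mutant and 8.76% in wild-type libraries. These 3 genes had a higher biological variation than 98%, 95.6% and 91.8% of the 500 genes nearest in level, and Dlx5 than 89.8%. Isl1 had 9.12% in mutant and 8.62% in wild-type libraries, and Eya1 8.46% in mutant and 3.70% in wild-type libraries. Pax2 had 3.98% in mutant and 18.3% in wild-type libraries, the reverse order. No test was made of whether spread differs between genotypes.

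**Figure D4:**
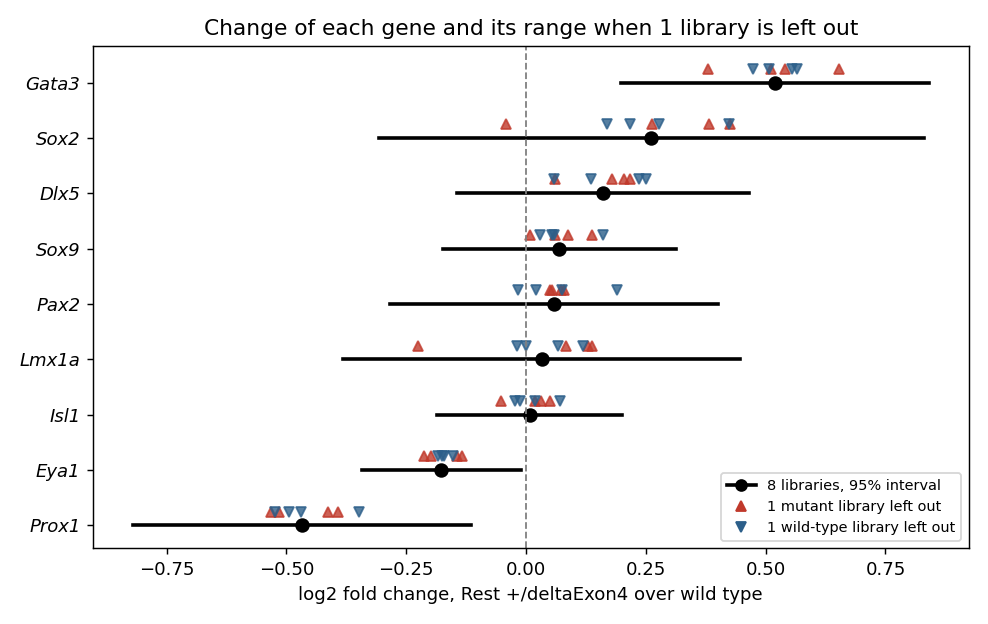
Log2 fold change of Rest +/deltaExon4 over wild type for each gene (black points, bars the 95% interval), with the values when 1 mutant (upward triangles) or 1 wild-type library (downward triangles) is left out. Gata3 stays between 0.38 and 0.65 and Prox1 between -0.53 and -0.35, while Sox2, Lmx1a, Isl1 and Pax2 take both signs.

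Beyond the paralogs, 31 other otic patterning regulators and 23 genes of prosensory signalling were counted. Over all genes tested, 13.4% had an unadjusted p under 0.05. Of the first list 29 were tested and none passed with edgeR (5 at an unadjusted p under 0.05, median log2 change 0.16). Its most abundant members were Spry2, an inhibitor of FGF signalling, at 1167 ± 149 CPM in mutants against 1042 ± 89.8 CPM in wild types, and Tbx3, a T-box gene, at 342 ± 34.5 CPM in mutants against 288 ± 42.6 CPM in wild types. All 23 of the second list were tested and none passed with edgeR (2 at an unadjusted p under 0.05, median 0.08). Jag1, the Notch ligand of prosensory cells, was at 928 ± 55.3 CPM in mutants against 898 ± 136 CPM in wild types, and Igf2bp1 at 405 ± 90.4 CPM in mutants against 353 ± 10.5 CPM in wild types (SD, n = 4 each). One of the 2 genes at an unadjusted p under 0.05, picked after its values were seen, was Atoh1, which prosensory cells switch on as they become hair cells, at 79.9, 55.2, 64.8 and 41.6 CPM in mutant libraries and 31.0, 28.0, 49.2 and 45.1 CPM in wild-type libraries (edgeR adjusted p = 0.238). As for Gata3, mutant replicate 4 was the lowest mutant library. Over all 94 tested genes of the 7 regulator lists, Sox11 was the 1 gene called by edgeR, against 1.17% of all genes. DESeq2 called 2 of them, Sox11 and Sox4, against 3.32% of all genes.

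Of the marker lists, 3 of 10 vestibular neuron markers fell, Nefm (100.4 ± 3.30 CPM in mutants against 254 ± 27.1 CPM in wild types), Nefl and Snap25. Over all genes tested, edgeR called 1.02% lower and 0.147% higher. Nefl lost its call with the replicate number as a block (log2 change -0.88, edgeR adjusted p = 0.082). Among 8 hair cell markers 1 fell, Otof (84.2 ± 9.82 CPM in mutants against 167 ± 8.80 CPM in wild types). None of the markers of supporting cells, non-sensory epithelium, Schwann cells, cartilage and mesenchyme, melanocytes or endothelium passed with edgeR (0 of 39 tested). At an unadjusted p under 0.05 there were 5 of the 39, against 13.4% of all genes. The median log2 changes of these 6 lists ran from -0.21 to 0.07. Their most abundant genes not yet given were Sparcl1 (321 ± 26.4 CPM in mutants against 343 ± 26.8 CPM in wild types), Smoc2 (58.8 ± 19.6 CPM in mutants against 46.9 ± 13.9 CPM in wild types), Erbb3 (177 ± 36.4 CPM in mutants against 150 ± 12.5 CPM in wild types) and S100b (49.9 ± 5.73 CPM in mutants against 58.2 ± 6.15 CPM in wild types). Col9a1 was at 1108 ± 151 CPM in mutants against 779 ± 299 CPM in wild types and Col2a1 at 463 ± 96.5 CPM in mutants against 352 ± 53.5 CPM in wild types. Pdpn was at 828 ± 67.1 CPM in mutants against 723 ± 83.6 CPM in wild types, Pecam1 at 35.0 ± 4.52 CPM in mutants against 38.4 ± 4.14 CPM in wild types, Mitf at 20.9 ± 1.47 CPM in mutants against 22.9 ± 9.15 CPM in wild types and Dct at 12.3 ± 3.08 CPM in mutants against 11.6 ± 4.97 CPM in wild types. Summed Schwann cell markers, a tissue that also holds Sox2, were at 289 to 380 CPM in mutant and 281 to 349 CPM in wild-type libraries, highest in mutant replicate 2. Their part in the level of Sox2 was not tested. Rest itself was at 127 ± 3.20 CPM in mutants against 116 ± 7.35 CPM in wild types (SD, n = 4 each, edgeR adjusted p = 0.456). Its mutant libraries, at 125 to 132 CPM, were all above the wild-type ones, at 106 to 122 CPM. The same held for 2.98% of all genes. Counts per gene do not show which exons were used and so do not check the deletion.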

How the data were processed

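Utricle RNA of 4 Rest(+/deltaExon4) and 4 wild-type samples was sequenced, and groups follow the genotype label. Per the labels' protocols, cDNA was primed with oligo-dT, amplified by PCR and tagmented, a method that does not mark strand. Per the submitters' processing notes, STAR 2.5.2a, the build GRCm38.p4 and DESeq2 (no version) were used. The authors deposited whole-number counts of read pairs per gene for each library, and the unstranded column was used. From 25.2% to 30.0% of read pairs in mutant libraries and 30.1% to 33.9% in wild-type libraries named no gene and stayed out. These ranges did not overlap, so this difference cannot be told apart from the genotype. The authors also deposited a normalized signal, counts divided by size factors, for 21369 genes and 7 libraries, without wild-type replicate 4. From it 100% of values gave whole reads (tolerance 0.001), and the count test on these reads called 107 genes lower and 20 higher.

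Counts were tested with edgeR 4.0.16 in R 4.3.3 (filterByExpr, minimum count 10, TMM factors, quasi-likelihood test, Benjamini-Hochberg adjustment over 16990 genes, threshold 0.05). The SE is the log2 change divided by the square root of F, and intervals are at 95%. The exact two-sided permutation test used 70 assignments of the 8 libraries (scipy 1.17.1). TPM used summed exon lengths of GENCODE M21. Likeness is the root mean square difference of log2(CPM + 0.5), centred per gene, over 153 other genes of the lists. A gene flat over all libraries would differ by 0.11 from Isl1, the least, and by 0.41 from Sox2, the most. DESeq2 1.42.0 and other filters, scalings, columns and left-out libraries were alternatives.

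The 9 genes and the companion lists were chosen with earlier results of these data known. Named genes are the 9, genes overlapping them or within 10 kb, the called members of each list or else its 2 most abundant, the likeness genes and Rest, and 1 gene that this rule chose is not reported here. Named outside this rule, after their values were seen, are Atoh1, Eya2, Dach1, Sox10, Sox6, Sox4 and Msx1. Also outside it are the lymphatic genes Lyve1 and Flt4, and Notch1, Prox2 and Gm26735, named for the counting by strand. Nothing states that the pools came from separate litters, so p-values measure only the spread between these samples. Interval and p-value precision is limited by 4 libraries a group.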

Additional observations from a re-analysis of the deposited data

Results flagged for a closer look

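Of 130 sets of 4 libraries screened, 7 held a library that stood apart by Dixon's criterion at 95%, and chance gives about 1 in 20. Among the 9 genes this was Lmx1a in mutant replicate 4, at 103 CPM, where mutant replicates 1 to 3 had 54.6 to 61.6 CPM. Lmo4 was at 578 CPM in mutant replicate 2, the library that was also high in Sox2 and Ssbp3. Jag1 was at 1101 CPM and Sox2ot at 48.6 CPM in wild-type replicate 1, each above the other wild-type libraries. BC006965 was at 133 CPM and Rest at 132 CPM in mutant replicate 1. The summed non-sensory and roof epithelium markers were at 2593 CPM in mutant replicate 3, of which Oc90 gave 2402 CPM.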

How the results depend on the processing

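Of the 9 genes, Gata3 was the one whose call changed: it passed with DESeq2 (log2 change 0.53) and without mutant replicate 4, and ranged from 0.38 to 0.65 with 1 library left out. Eya1, Prox1, Sox9 and Dlx5 kept their sign in all 16 alternatives. Isl1 turned negative without TMM factors (-0.035) and with a stricter filter (-0.00057), and ran from -0.053 to 0.071 with a library left out. Lmx1a turned without TMM factors (-0.0049) and with the replicate block (-0.014), and ran from -0.22 to 0.14. Sox2 ran from -0.042 to 0.43 and Pax2 from -0.016 to 0.19. Same-numbered libraries did not deviate together (r from -0.0983 to 0.0322). These correlations cannot show whether same-numbered pools were collected or prepared together. With the replicate block 80 genes were lower and 16 higher, against 173 and 25 without it, and no call among the 9 changed, while Nefl lost its call (adjusted p 0.082). DESeq2 gave 411 lower and 153 higher, the authors' 7 libraries 107 lower, and leaving out a library 105 to 140 lower and 12 to 28 higher. Of the regulator lists, 1 gene was called, 2 with no filter and 2 with DESeq2, and 0 to 1 with a library left out. By strand-specific columns wild-type Eya1 was at 121 and mutant Pax2 at 7.43 CPM. The reads of both genes were the same in that sum, and their CPM differ through its larger library sizes. Other signs turned for Ssbp2 (-0.00068 without TMM factors), Dct (-0.065 in the authors' libraries, -0.079 to 0.42 with a library left out), Prox1os (0.0062 with no filter, 0.028 with the block, -0.20 to 0.20), Dach2 (-0.021 without TMM factors, -0.035 with the block, -0.065 in the authors' libraries, -0.26 to 0.14) and Sox5 (-0.019 without TMM factors, -0.027 to 0.058). With a library left out Six4 ran from -0.038 to 0.18, Ssbp3 from -0.18 to 0.44, Mitf from -0.26 to 0.20, Gm20395 from -0.49 to 0.040 and Dlx6os1 from -0.020 to 0.52. The cause of these turns was not tested. Prox1 and Pax2, with 131 to 249 and 132 to 219 read pairs per library, had the least depth.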

Other observations

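Sox4, a SoxC gene and paralog of Sox11, gave different results by counting. In the unstranded counts it was at 63.4, 55.8, 57.9 and 31.9 CPM in mutant libraries and 33.6, 28.7, 33.3 and 30.7 CPM in wild-type libraries. Replicates 1 to 3 of the mutant were above every wild-type library and mutant replicate 4 was not, the same libraries as for Gata3. The log2 change was 0.73 (edgeR adjusted p = 0.0986), DESeq2 gave an adjusted p of 0.00401, and without mutant replicate 4 edgeR gave 0.00192. Sox4 shares 2616 of its 4795 exon bases with the antisense gene Gm26735, and reads there are counted for neither gene when strand is ignored. The sum of the strand-specific columns held 6.36 to 15.4 times as many reads, since it counts those in the shared bases for both genes. The libraries do not mark strand, so it cannot be told whether these reads came from Sox4 or Gm26735. On that sum, which may hold reads of Gm26735, the means were 444 ± 71.6 CPM (mutant) and 405 ± 56.2 CPM (wild type, SD over 4 libraries), a log2 change of 0.13 (edgeR adjusted p = 0.679). Of 156 list genes with at least 80 reads, 3 gained more than 2-fold by that sum, Sox4, Notch1 and Prox2. None of the 9 transcription factors gained more than 1.11-fold in any library.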
